A study of Mus musculus with 96 samples.

Results

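Expression of 39 developmental transcription factors of the Dlx-, Irx-, Lhx-, Six-, Nkx- and Pax-type families was examined in mouse ESCs in which the Polycomb protein RYBP or its partners had been altered. The 39 genes were chosen by symbol, and all 39 were found among the 37620 genes of each count table (6 Dlx, 6 Irx, 8 Lhx, 7 Nkx, 7 Pax and 5 Six-family genes). RNA-seq counts came in 7 tables of 2 control and 2 treated libraries each, and every comparison was made within its own table. Deletion was studied in R7.15 ESCs, a Rybp-floxed line, as Rybp-/- cells that had received 5 µM 4-OHT for 4 days against Rybp+/+ cells, the same line without 4-OHT (vehicle), so the deletion and exposure to 4-OHT cannot be told apart. Knockdown was studied in R1 ESCs, as shRybp or shWdr5 against the empty vector shEV. In the rTRS line, which carries DOX-induced Rybp and Stat3, DOX was compared with the NTC control, and in Tet.RYBP cells, a J1 line with Tet-on RYBP, DOX was compared with vehicle. No cells without an induced gene were given DOX, so induction and exposure to DOX cannot be told apart. The TF-AA mutation in R1 ESCs was compared with WT ESC. RYBP phase disruption, which carries a 21-residue deletion of RYBP, was compared with WT.RYBP, both in R7.15 ESCs (RYBPfl/fl with Rosa26::CreERT2) given 4-OHT, so that both groups carry the deletion of the endogenous gene. All cells were grown in serum with LIF. The labels do not say that the 2 libraries of a group came from separate cultures, so p-values measure only the spread between these libraries. Peak lists of RING1B, H3K4me3, H3K27ac, WDR5 and STAT3 were read at the same loci. The RING1B lists came from shEV ESCs, from ESCs with Stat3 knockdown (shStat3) and from Tet.Rybp.Stat3 cells without and with DOX. The H3K4me3, H3K27ac and WDR5 lists came from Rybp+/+ and Rybp-/- ESCs. The STAT3 lists came from Rybp+/+ and Rybp-/- ESCs and from Tet.Rybp.Stat3 cells without and with DOX. The replicates of a list had been merged by the authors or a list held a single sample, so peaks are described without a test.

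All 6 families encode homeodomain or paired-domain proteins that bind DNA and set cell identity in the embryo, and ESCs keep most of them silent. Dlx factors act in the forebrain, the branchial arches, the skin and the placenta, Irx factors pattern the neural plate and the heart, and LIM-homeodomain (Lhx) factors specify neurons, the pituitary and the head organizer. Six2, Six4 and their relatives act with EYA cofactors in the eye, muscle and kidney, Nkx factors in the ventral neural tube, heart, thyroid and gut, and Pax factors in the neural tube, somites, kidney and thyroid. Genes of this kind are known as bivalent in ESCs. Their CpG-rich start sites carry H3K4me3 together with Polycomb complexes, of which PRC1 contains RING1B, the enzyme that ubiquitinates H2A, and in its variant forms RYBP. WDR5 is a subunit of the enzymes that methylate H3K4, and H3K27ac marks active promoters and enhancers.

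CpG-rich start sites are known as sites of Polycomb binding, and the CpG content before the members' start sites varied. The 250 bases before the first start site of 6 members are printed 5′ to 3′ from the mm9 genome with CpG pairs in capitals, because these members carry the main differences described here. Nkx2-9, Nkx2-2, Irx3 and Dlx3 rose after both knockdowns, Pax8 fell in 3 comparisons, and Six4 was the most abundant member in most controls.
Nkx2-9: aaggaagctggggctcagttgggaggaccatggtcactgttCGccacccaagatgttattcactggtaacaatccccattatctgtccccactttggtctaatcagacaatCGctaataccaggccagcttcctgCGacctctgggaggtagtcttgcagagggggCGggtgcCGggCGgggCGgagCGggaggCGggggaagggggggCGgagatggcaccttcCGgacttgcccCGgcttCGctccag
Nkx2-2: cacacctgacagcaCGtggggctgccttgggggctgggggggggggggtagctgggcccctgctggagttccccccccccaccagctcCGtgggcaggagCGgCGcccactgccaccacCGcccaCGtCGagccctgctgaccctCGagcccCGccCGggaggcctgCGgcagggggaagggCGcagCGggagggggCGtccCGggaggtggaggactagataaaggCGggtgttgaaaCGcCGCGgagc
Irx3: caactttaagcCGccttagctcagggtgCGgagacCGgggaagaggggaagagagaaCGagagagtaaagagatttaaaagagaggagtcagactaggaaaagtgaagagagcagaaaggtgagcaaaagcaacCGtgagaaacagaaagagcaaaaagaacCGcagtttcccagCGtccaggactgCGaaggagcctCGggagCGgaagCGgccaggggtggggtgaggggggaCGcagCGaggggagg
Dlx3: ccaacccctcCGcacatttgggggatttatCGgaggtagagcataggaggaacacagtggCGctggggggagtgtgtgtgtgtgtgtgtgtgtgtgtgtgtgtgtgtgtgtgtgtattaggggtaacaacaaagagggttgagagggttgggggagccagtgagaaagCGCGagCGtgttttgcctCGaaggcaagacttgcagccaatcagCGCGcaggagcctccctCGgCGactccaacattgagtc
Pax8: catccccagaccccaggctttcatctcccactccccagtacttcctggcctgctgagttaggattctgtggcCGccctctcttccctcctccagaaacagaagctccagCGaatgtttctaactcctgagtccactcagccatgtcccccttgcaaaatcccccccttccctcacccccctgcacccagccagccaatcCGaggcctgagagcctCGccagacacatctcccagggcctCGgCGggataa
Six4: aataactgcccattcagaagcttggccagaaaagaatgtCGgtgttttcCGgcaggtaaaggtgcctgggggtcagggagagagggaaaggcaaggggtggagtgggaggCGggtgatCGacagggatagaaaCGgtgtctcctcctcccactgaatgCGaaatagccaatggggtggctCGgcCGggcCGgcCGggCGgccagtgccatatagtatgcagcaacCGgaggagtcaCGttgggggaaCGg
These windows lie upstream of the annotated exons of Nkx2-9 at chr12:57714272-57714521 (minus strand), Nkx2-2 at chr2:147019980-147020229 (minus strand), Irx3 at chr8:94325554-94325803 (minus strand), Dlx3 at chr11:94981153-94981402 (plus strand), Pax8 at chr2:24331120-24331369 (minus strand) and Six4 at chr12:74214402-74214651 (minus strand). The Nkx2-2 window held 19 CpG, those of Six4, Nkx2-9 and Irx3 held 14, 13 and 13, that of Dlx3 held 11, and that of Pax8 held 6. Over the 39 members the median was 14 CpG per 250 bases, from 3 at Dlx1 and Dlx6 to 26 at Six2 and Nkx6-2, against a median of 8 over 22375 protein-coding genes. The median GC content was 61.6% and 54.0%, and the median ratio of observed to expected CpG was 0.622 and 0.496. A ratio of at least 0.6 was found at 21 members (53.8%) and at 42% of protein-coding genes, and Pax8, with a ratio of 0.314, was below both medians. The letters TTCNNNGAA, to which STAT proteins are known to bind and which read the same on both strands, were found in 0 of the 39 windows and in 6.83% of the windows of all protein-coding genes.

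RING1B covered the start sites of the whole set. A peak of the shEV list lay within 2.5 kb of an annotated start site of 39 of 39 members, against 45.9% of the 22380 protein-coding genes. The count was 39 in each of the other RING1B lists too, where the share of protein-coding genes was 41.6% after Stat3 knockdown (shStat3), 54.7% without DOX and 41.9% with DOX in Tet.Rybp.Stat3 cells. The peaks at members were broad. The widest peak per member in the shEV list had a median of 11284 bp against 996 bp for protein-coding genes with a peak, and its fold enrichment stood at a median percentile of 97.5 of the list against 55. A RING1B peak of at least 5 kb, a width chosen after the values were seen, was present at 35 members and at 2.12% of protein-coding genes.

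**Figure D1:**
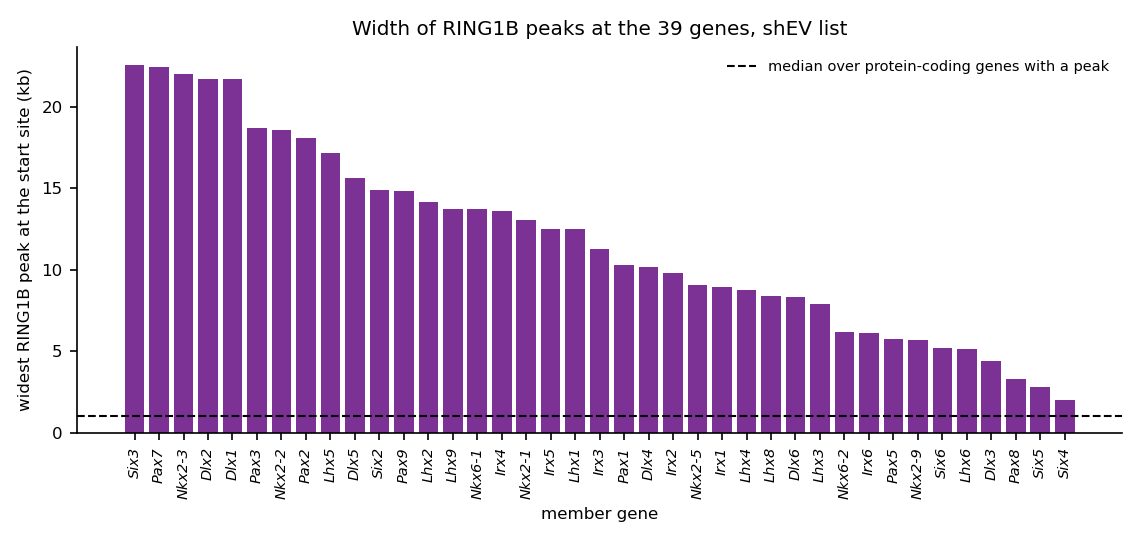
Width in kb of the widest RING1B peak at a start site of each of the 39 genes in the shEV list (bars, 1 gene each, single sample), with the median over protein-coding genes that have a peak (dashed line). The bars run from 22.5 kb at Six3 down to 2.01 kb at Six4, and all lie above the dashed line at 0.996 kb.

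Six3, a regulator of forebrain and eye, had the widest shEV peak with 22542 bp, while its RNA was at 0 in every library. The 4 members with a peak under 5 kb were Dlx3 (4361 bp), Pax8 (3266 bp), Six5 (2810 bp) and Six4 (2009 bp). The Six4 peak, at chr12:74212474-74214482, had a fold enrichment of 5.13 and percentile 54.9, the lowest of the members. Six4 was the lowest member in the other RING1B lists as well, at percentile 34.5 in shStat3, 82.8 without DOX and 73.8 with DOX. For comparison, the peak over the whole of Nkx2-9, at chr12:57711415-57717124, had a fold enrichment of 44.2 and percentile 97.2. The strongest peaks of the 39 members were 38 distinct peaks in the shEV list, since the neighbours Dlx1 and Dlx2 shared a peak. Between the shEV and shStat3 lists the percentile was lower in shStat3 for 30 members and higher for 7, and between the lists without and with DOX it was lower for 23 and higher for 15, values that compare ranks within lists of different length (14408, 12017, 17021 and 12864 peaks).

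H3K4me3 was likewise present at 39 of 39 members in Rybp+/+ and in Rybp-/- ESCs, against 67.8% and 67.9% of protein-coding genes. Here the members did not stand at the top of the list. Their median percentile of fold enrichment was 75.1 in Rybp+/+ ESCs against 82.4 for protein-coding genes with a peak, and 75.5 against 81.7 in Rybp-/- ESCs. Six5, at percentile 93.8, Six4 and Irx2, each at 91.7, had the highest H3K4me3 of the members in Rybp+/+ ESCs, and Nkx2-9 the lowest at 61.4. The Nkx2-9 peak was at percentile 70.6 in Rybp-/- ESCs.

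H3K27ac was rare at these loci. In Rybp+/+ ESCs 5 of the 39 members had a peak, which is 12.8% against 51.6% of protein-coding genes, and in Rybp-/- ESCs 8 members had one, which is 20.5% against 54.8%. The 5 members were Irx2, Irx5, Six4, Six5 and Nkx6-2. Six4 alone stood high in its list, with a peak 4464 bp wide, a fold enrichment of 19.3 and percentile 92.9 in Rybp+/+ ESCs, and 3617 bp, 14.7 and 91.8 in Rybp-/- ESCs. Six5 followed at percentile 70.4 and 75.9. Irx5 stood at percentile 6.87 and 68.8 and Irx2 at 8.27 and 64.3, which are ranks within lists of 57642 and 62669 peaks, and their fold enrichments were 2.75 and 5.08 and 2.75 and 4.67. The Nkx6-2 peak, with a -log10 q of 4.12, was absent from the Rybp-/- list. Dlx6, Irx3, Nkx2-9 and Nkx6-1 had a peak in Rybp-/- ESCs alone, with -log10 q from 2.83 at Nkx6-1 to 5.33 at Irx3. With peaks of -log10 q of at least 5 the counts were 2 and 5. Irx2 (-log10 q of 2.49, then 8.36), Irx5 (4.24, then 11.3) and Irx3 (no peak, then 5.33) made up that difference. The share of protein-coding genes at this threshold was not counted, and the Rybp-/- list is the longer one. A gain particular to the members therefore cannot be read from these counts.

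WDR5 peaks lay at 28 members in Rybp+/+ ESCs and at 22 in Rybp-/- ESCs, against 46.8% and 49.2% of protein-coding genes. Irx4, Lhx8, Lhx9, Six3, Nkx2-1, Nkx2-5 and Pax7 had a WDR5 peak in Rybp+/+ ESCs alone, all at or below percentile 37.1 of the list, and Pax1 in Rybp-/- ESCs alone at percentile 10.9. The strongest WDR5 peaks were at Pax5, with a fold enrichment of 19.7 in Rybp+/+ and 29.4 in Rybp-/- ESCs, followed by Irx5, Pax9 and Irx2 in Rybp+/+ ESCs. STAT3 peaks were found at 7 members in Rybp+/+ ESCs (7.78% of protein-coding genes) and at 9 in Rybp-/- ESCs (6.56%), with Six3 and Nkx2-5 in both lists. In Tet.Rybp.Stat3 cells STAT3 peaks were at 12 members without DOX (9.03% of protein-coding genes) and at 39 of 39 with DOX (57.5%), in lists of 2816 and 30663 peaks. With DOX the STAT3 peaks of the members stood at a median percentile of 90.7, highest at Dlx4 (fold enrichment 15.0, percentile 99.4) and lowest at Pax8 (3.94, percentile 32.4).

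Combining the shEV RING1B list, from R1 ESCs, with the Rybp+/+ lists, from R7.15 ESCs, 39 of 39 members had RING1B with H3K4me3, against 45.7% of protein-coding genes. RING1B, H3K4me3 and WDR5 without H3K27ac was the state of 23 members (59.0%), which is found at 5.24% of protein-coding genes. RING1B and H3K4me3 without WDR5 or H3K27ac was the state of 11 (28.2% against 8.34%), among them Dlx3, Lhx1, Nkx2-9 and Pax8. All 4 were present at 5 members (12.8% against 28.4%).

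**Figure D2:**
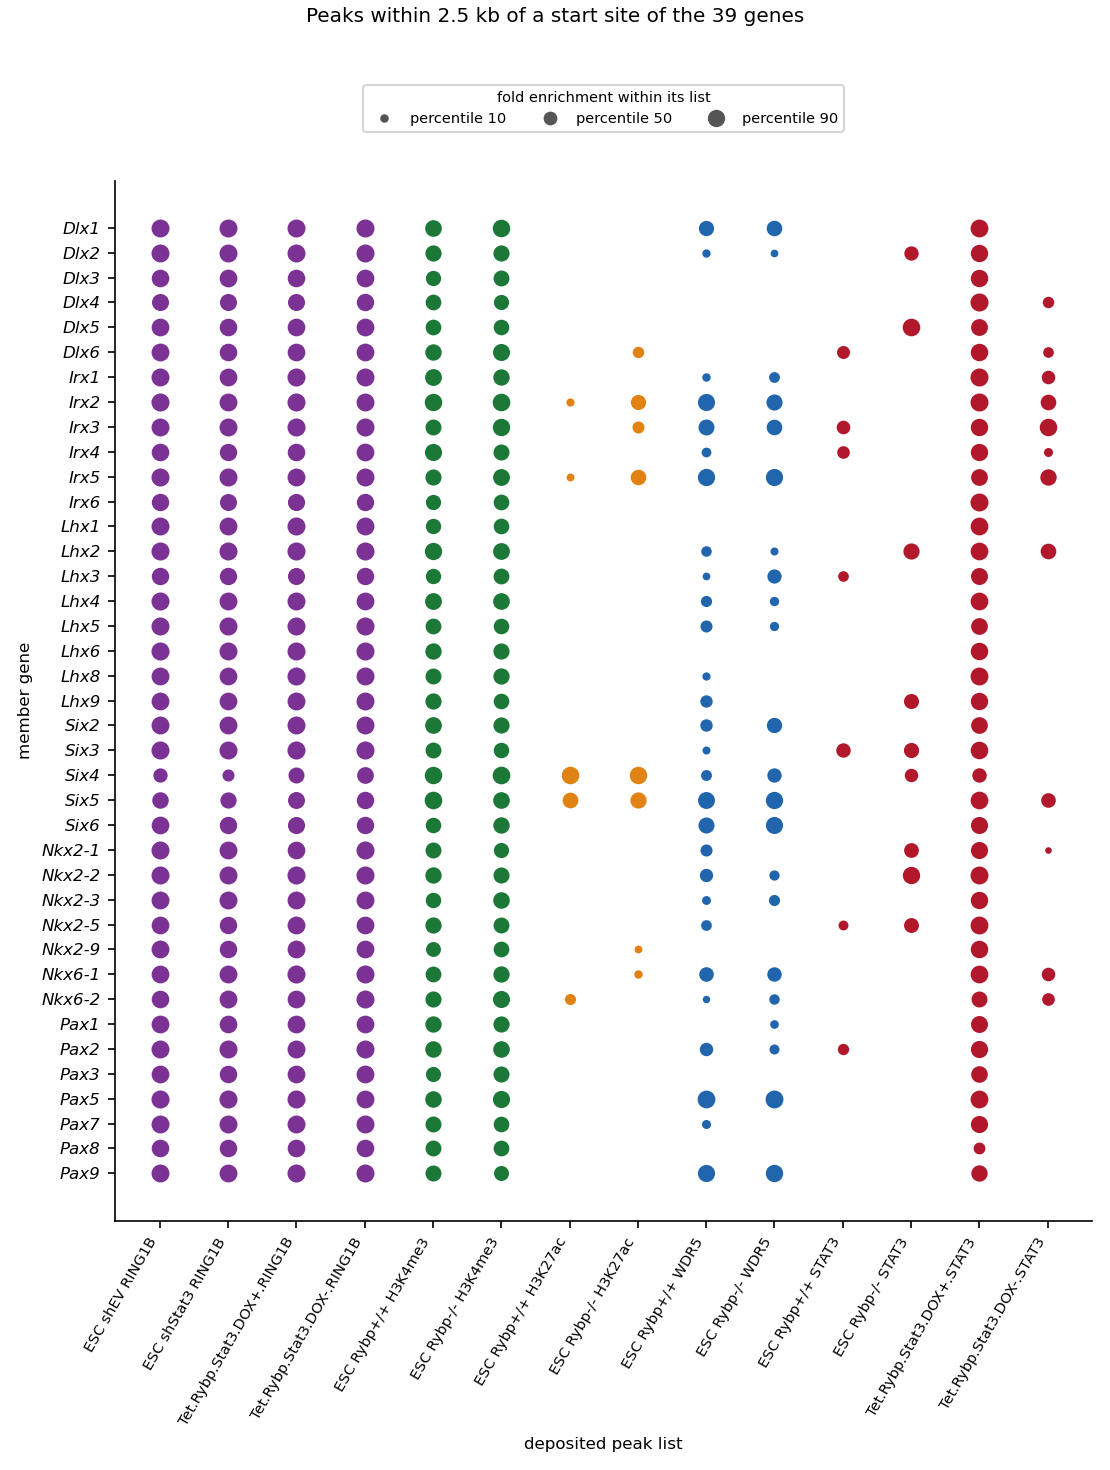
Peaks within 2.5 kb of a start site of the 39 genes (rows) in the 14 deposited peak lists (columns, coloured by antibody), with the area of a dot giving the percentile of its fold enrichment within its own list. RING1B and H3K4me3 fill their columns, H3K27ac has 5 and 8 dots, and STAT3 goes from 12 dots without DOX to 39 with DOX.

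The libraries held 14512857 to 81049618 counts on genes, and the 39 members took between 0.00436% and 0.0247% of them. The targeted genes followed the labels in 4 tables. Rybp was at 110 and 110 CPM (counts scaled to TMM-adjusted library size) in Rybp+/+ and 24.8 and 25.0 in Rybp-/-, at 85.7 and 86.4 in shEV and 35.7 and 36.5 in shRybp, and at 135 and 145 in vehicle and 521 and 535 in Tet.RYBP DOX libraries. Wdr5 was at 350 and 343 CPM in shEV and at 60 and 58.1 in shWdr5. In the rTRS line, labelled as induced for both, Rybp was at 113 and 110 CPM in NTC and 102 and 99.7 in DOX (adjusted p = 0.076), and Stat3 at 159 and 172 and then 191 and 188 (log2 fold change 0.20, adjusted p = 0.026, edgeR). Markers of embryonic stem cells summed to between 2930 and 6730 CPM, and all 8 were detected in every table.

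The members were low in the control libraries. In the control libraries of the 7 tables, which were normalized separately, Six4 had the highest level per kb of exon in 4 tables, at 4.17 to 7.84 CPM per kb over the 7 tables. Nkx6-2 was at 1.93 to 9.19 CPM per kb and was the highest member in Tet.RYBP vehicle cells. Nkx2-9 was at 0.283 CPM per kb in Rybp+/+, 2.03 to 2.83 in 4 other tables and 13.7 in the shEV libraries of the shRybp table, where it was the highest member. Its replicates there, at 13.5 and 13.9 CPM per kb, did not overlap those of Nkx6-2 at 9.20 and 9.18, which lay above those of Six4 at 6.38 and 7.07. Six5 had 2.3 CPM per kb there and Nkx2-5 had 1.69, and the other 34 members were lower still or at 0. Irx3, at 1.47 CPM per kb in shEV, reached 2.89 in WT.RYBP cells. At the other end, Lhx8 and Six3 were at 0 counts in all 28 library columns, and 9 members stayed under 1 CPM in every library. Between 10 members (Tet.RYBP) and 30 members (shRybp) passed the filter on low counts in a comparison. Of the 39 genes, 9 passed it in all 7 comparisons and 6 in none (Dlx6, Irx6, Lhx8, Six3, Six6 and Nkx2-1). A member that reached the level of the filter in both treated libraries but not in both controls was more likely to be higher in the treated group. There were 7 such members in shRybp, 11 in shWdr5, 4 each in TF-AA and phase disruption, 3 in rTRS DOX, 1 after deletion and 0 in Tet.RYBP DOX. The counts and medians over tested members below are therefore descriptions of these libraries, and the medians over all genes beside them are no measure of chance. In these bulk libraries fewer expressing cells and less RNA per cell cannot be told apart.

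**Figure D3:**
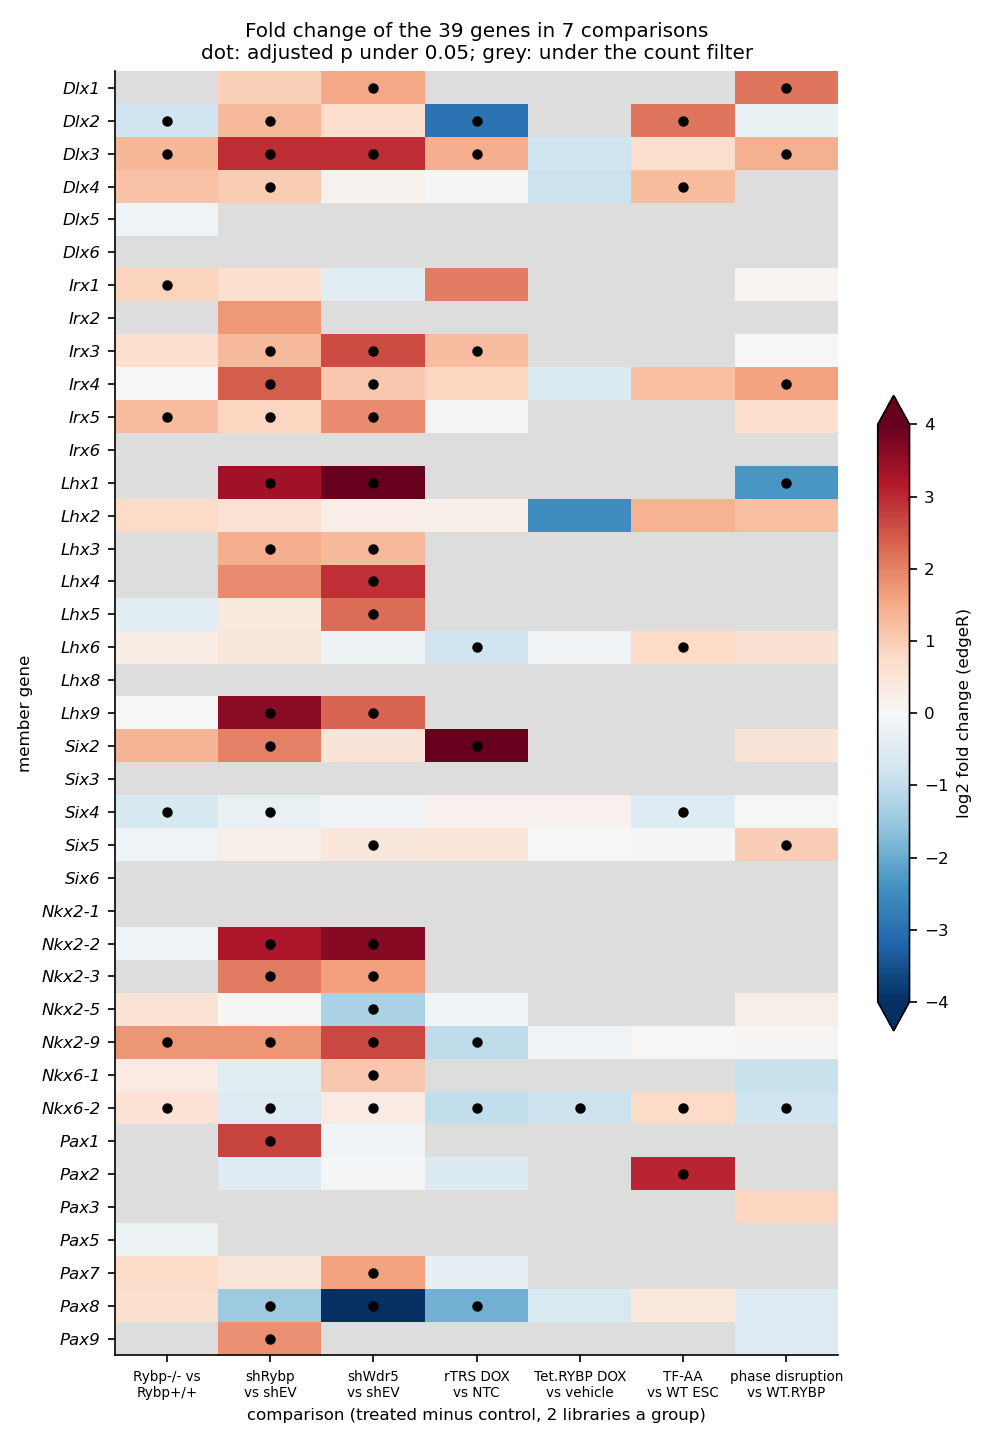
Log2 fold change (edgeR) of the 39 genes (rows) in the 7 comparisons (columns, treated minus control), with red for higher, blue for lower, a dot for an adjusted p under 0.05 and grey for genes under the count filter. The shRybp and shWdr5 columns, which share their shEV controls, hold 18 and 19 dots, and Nkx6-2 has a dot in each column.

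Deletion of Rybp raised 5 members and lowered 2 of the 23 tested. Over all 16955 genes tested, 22.8% were higher and 22.7% lower in Rybp-/- ESCs, so the share of members called higher (5 of 23) was close to the background. The median log2 fold change of the tested members was 0.56, against 0 over all genes tested. Nkx2-9, a factor of the ventral neural tube, was at 0.293 and 0.422 CPM in Rybp+/+ and at 1.10 and 1.32 CPM in Rybp-/- libraries, the largest rise of the set (log2 fold change 1.76, SE 0.37, adjusted p = 2e-04, edgeR). Dlx3, which is needed in placenta and epidermis, went from 0.432 and 0.559 to 1.14 and 1.35 CPM (1.33, SE 0.34, adjusted p = 0.0017). In both genes the Rybp-/- libraries lay clear of the controls, at low levels. Over all genes tested, both Rybp-/- libraries lay above both controls for 35.7% and below both for 35.1%. Among the Iroquois genes, Irx1 went from 0.967 and 1.03 to 1.92 and 1.82 CPM (0.90, SE 0.25, adjusted p = 0.0035), and Irx5 from 0.356 and 0.261 to 0.683 and 0.766 CPM (1.23, SE 0.45, adjusted p = 0.025). Nkx6-2, of the ventral spinal cord, went from 3.6 and 3.74 to 5.44 and 5.64 CPM (0.59, SE 0.14, adjusted p = 0.00053).

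The most abundant member moved the other way. Six4, a factor of muscle precursors, was at 29.0 and 29.7 CPM in Rybp+/+ and at 19.6 and 17.9 CPM in Rybp-/- libraries, which did not overlap (log2 fold change -0.65, SE 0.07, adjusted p = 9.4e-10, edgeR). Dlx2, a factor of forebrain interneurons, went from 1.64 and 2.14 to 0.775 and 1.40 CPM (-0.79, SE 0.27, adjusted p = 0.015). Six5, at 2.42 and 2.78 CPM in controls and 1.89 and 2.74 in Rybp-/- libraries, overlapped between the groups. The other tested members were at most 2.35 CPM in any library and were not called. The calls of Dlx2 and Irx5 did not hold in every fit with 3 libraries. Dlx2 was no longer called without Rybp+/+ replicate 2 (-0.59) or Rybp-/- replicate 1 (-0.43), was at -1.28 without Rybp-/- replicate 2, and was not called by DESeq2. Irx5 was no longer called without Rybp+/+ replicate 2 (1.02), Rybp-/- replicate 1 (1.31) or Rybp-/- replicate 2 (1.14), with a log2 fold change close to that of all 4 libraries. Markers of feeder fibroblasts moved with this comparison: 7 of 8 were higher, none was at 0, and their summed level was 63.7 and 63.1 CPM in Rybp+/+ and 130 and 135 CPM in Rybp-/- libraries. Primitive endoderm markers summed to 8.94 and 10.1 and then 18.1 and 16.9 CPM (3 of 7 higher, none at 0), and trophectoderm markers to 58.6 and 61.9 and then 77.4 and 81.9 CPM (6 of 7 higher, none at 0). The part of these cell types in the result was not tested.

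After knockdown of Rybp in R1 ESCs more members were called, 15 higher and 3 lower of 30 tested. The background was 26.8% higher and 26.0% lower of 16538 genes, and the median log2 fold change was 1.15 for the tested members and 0.02 for all genes. The filter pushes the first median up, since Dlx1, Irx2, Lhx1, Lhx4, Lhx9, Nkx2-3 and Pax9 passed it through the shRybp libraries. Among the Nkx genes, Nkx2-9 was at 17.0 and 17.6 CPM in shEV and at 58.0 and 57.9 CPM in shRybp (log2 fold change 1.75, SE 0.07, adjusted p = 7.7e-13, edgeR), which made it the most abundant member in the shRybp libraries. Nkx2-2, which specifies ventral interneurons, went from 0.329 and 0.408 to 3.98 and 2.96 CPM (3.24, SE 0.33, adjusted p = 1.7e-07). Its shRybp libraries differed by about 1 CPM and both lay far above shEV. Of the Lhx genes, Lhx1, of the head organizer, went from 0.0505 and 0.109 to 0.815 and 0.847 CPM (3.35, SE 0.69, adjusted p = 0.00046), and Lhx9, of the gonad and forebrain, from 0.0758 and 0.0815 to 1.3 and 0.646 CPM (3.6, SE 0.69, adjusted p = 0.00025). These 2 rises start from a few counts, so their sizes are imprecise.

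Dlx3 went from 0.607 and 0.408 CPM in shEV to 4.02 and 3.92 CPM in shRybp (log2 fold change 2.96, SE 0.30, adjusted p = 1.2e-07, edgeR), and Pax1, a sclerotome factor, from 0.708 and 1.09 to 5.2 and 6.37 CPM (2.69, SE 0.25, adjusted p = 4.3e-08). Both genes had shRybp libraries that agreed closely. Irx4, a ventricular factor of the heart, went from 0.960 and 0.299 to 3.69 and 3.10 CPM (2.41, SE 0.36, adjusted p = 1.8e-05). The shEV libraries of Irx4 differed, and its value was 3.49 without shEV replicate 1 and 1.81 without shEV replicate 2. The value of Lhx1 was 3.96 without shEV replicate 2, and that of Lhx9 was 2.99 without shRybp replicate 1. The other members that rose were Six2 (2.02), Nkx2-3 (2.07), Pax9 (1.83), Lhx3 (1.45), Irx3 (1.3), Dlx2 (1.29), Dlx4 (1.01) and Irx5 (0.87).

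The 3 members that fell were among the more abundant ones. Pax8, a thyroid and kidney factor, went from 4.78 and 3.97 CPM in shEV to 1.36 and 1.89 CPM in shRybp (log2 fold change -1.44, SE 0.24, adjusted p = 6.3e-05, edgeR). Nkx6-2 went from 17.5 and 17.5 to 12.4 and 11.9 CPM (-0.53, SE 0.10, adjusted p = 0.00018), and Six4 from 44.9 and 49.7 to 36.3 and 40.2 CPM (-0.31, SE 0.07, adjusted p = 0.0019). None of these groups overlapped, and over all genes tested 36.5% had both shRybp libraries below both shEV libraries. Irx6 and Pax3 had no counts in either shEV library and were under the filter in this comparison. Irx6 had 21 counts over the shRybp libraries, at least 5.34-fold higher than the 3 counts that a group at 0 allows, and Pax3 had 17, at least 4.32-fold higher. Trophectoderm markers moved with this comparison: 5 of 7 were higher, 1 was lower, none was at 0, and their sum was 56.3 and 61.6 CPM in shEV and 207 and 226 CPM in shRybp. Primitive endoderm markers summed to 17.3 and 21.1 and then 31.3 and 33.4 CPM, with 5 of 7 higher and 1 lower, and feeder fibroblast markers to 18.7 and 18.8 and then 32.4 and 30.8 CPM, with 3 of 3 tested higher and Lum and Dcn at 0. Neural markers summed to 679 and 667 and then 470 and 460 CPM (2 of 7 higher, 3 lower, none at 0), and embryonic stem cell markers to 6520 and 6730 and then 5740 and 5730 CPM (3 of 8 higher, 4 lower). The part of these cell types in the result was not tested.

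**Figure D4:**
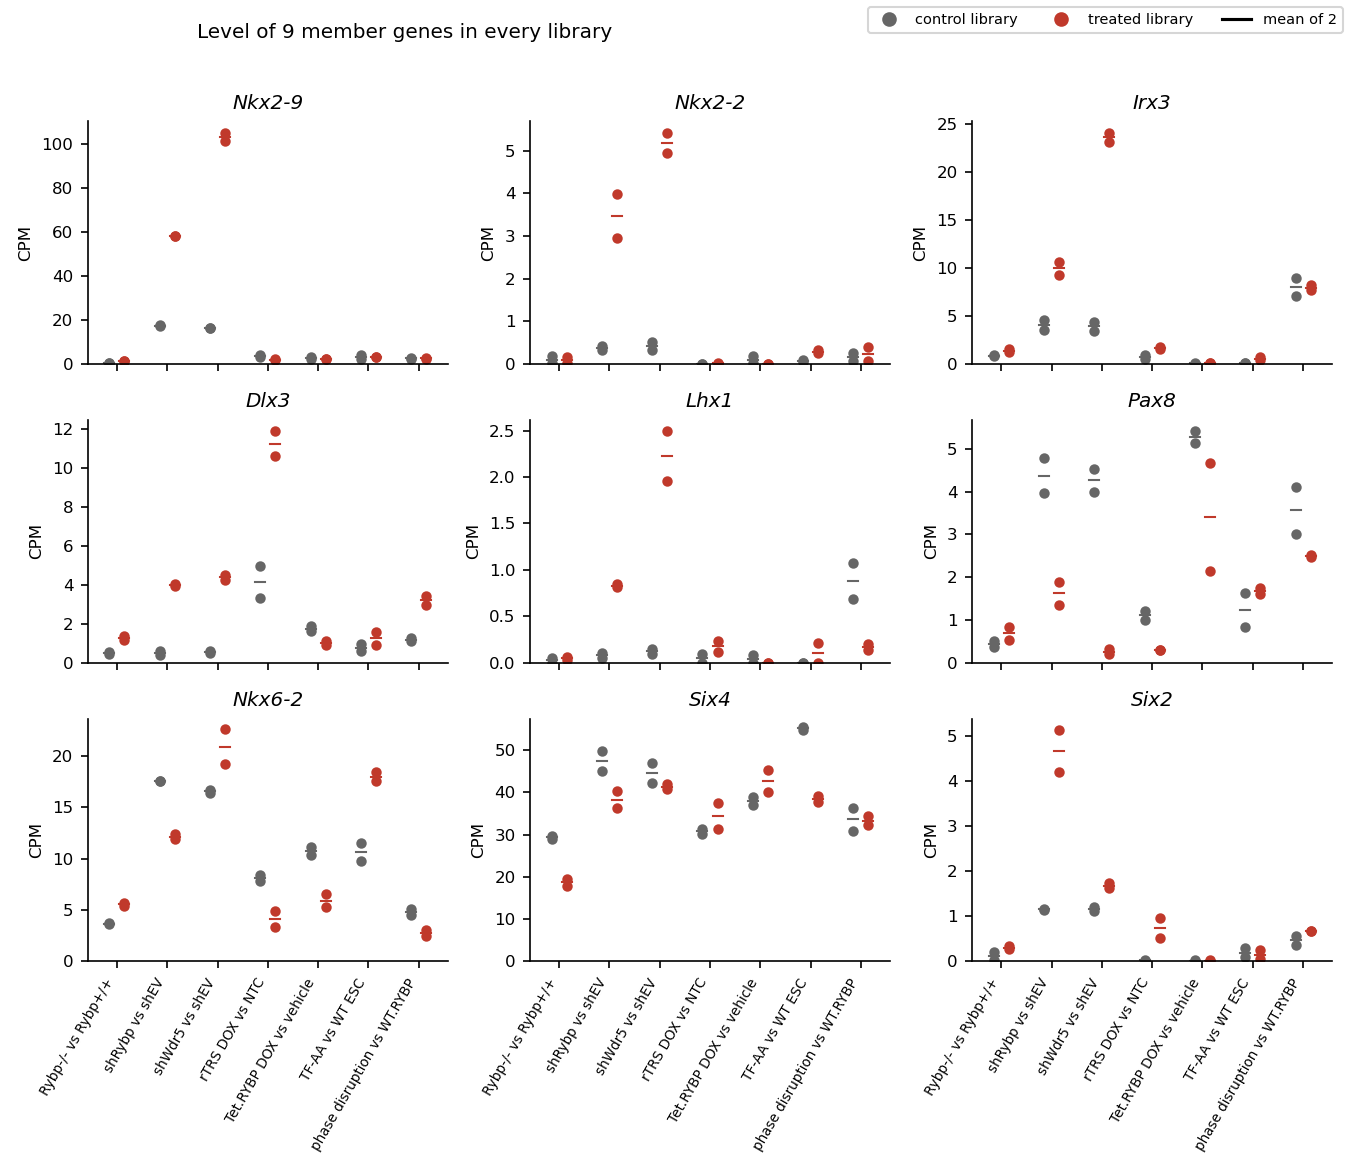
CPM of 9 members with called changes, chosen after their values were seen, in each library of the 7 tables (grey, control, red, treated, dash, mean of 2), on linear axes that start at 0 and differ between panels. Nkx2-9, Nkx2-2, Irx3, Dlx3 and Lhx1 separate in the shRybp and shWdr5 tables, Pax8 is lower there, and Six4 stays between 17.9 and 55.5 CPM throughout.

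The deletion and the knockdown were compared by testing the difference of their effects. Of the 34 members tested, 2 had a higher and 7 a lower effect of deletion than of knockdown, against 22.2% and 18.2% of 18203 genes. For Nkx2-9 the effects were close, 1.76 and 1.75, with a difference of 0.03 (SE 0.21, adjusted p = 0.92, edgeR), although its control level was far lower in the R7.15 table. Dlx2 was lower after deletion and higher after knockdown (difference -2.06, SE 0.42, adjusted p = 0.00035), and Nkx6-2 higher after deletion and lower after knockdown (1.15, SE 0.16, adjusted p = 2.4e-06). Pax8 fell after knockdown and was not called after deletion (2.09, SE 0.45, adjusted p = 0.00061). Irx4, Lhx9 and Nkx2-2, which rose after knockdown, had effects of -0.03, 0 and -0.14 after deletion, and the differences were -2.42, -3.59 and -3.36 (adjusted p = 0.0016, 0.00011 and 0.011). The difference for Lhx9 was -2.98 without shRybp replicate 1, and that for Irx4 was -3.50 without shEV replicate 1 and -1.83 without shEV replicate 2.

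Dlx3 rose in both and more after knockdown (difference -1.61, SE 0.45, adjusted p = 0.0058, edgeR), and Six4 fell in both and more after deletion (-0.32, SE 0.10, adjusted p = 0.017). The call for Pax3 (adjusted p = 0.047) rests on shEV libraries at 0 counts, so the size of its fitted difference has no meaning. The remaining 25 tested members were not called. The lines, the way in which Rybp was lowered and the depth of the tables differ together and cannot be told apart here.

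**Figure D5:**
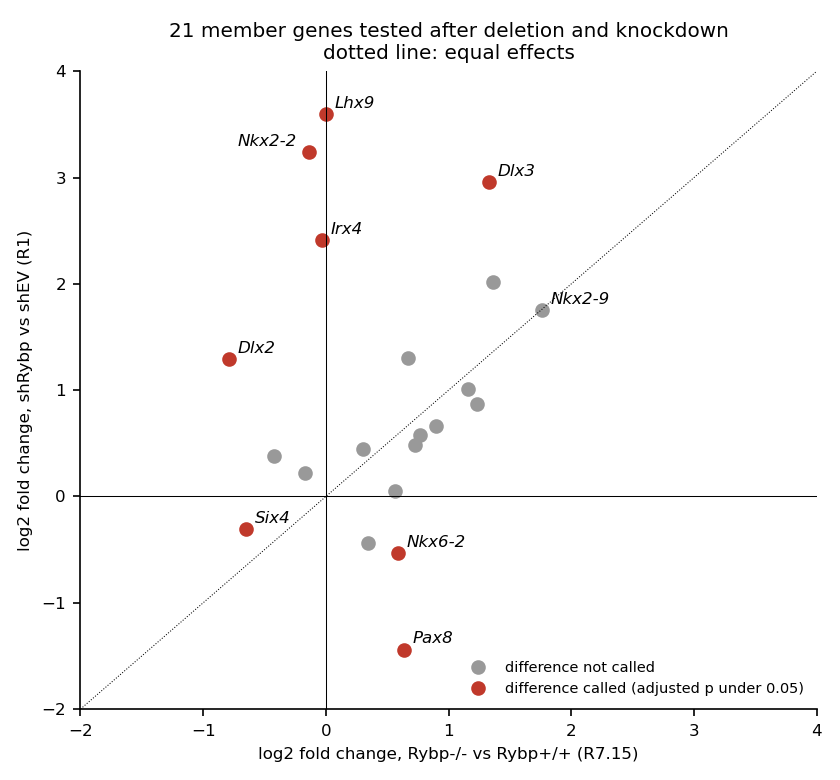
Log2 fold change after deletion (x axis, Rybp-/- against Rybp+/+ in R7.15) and after knockdown (y axis, shRybp against shEV in R1) of the 21 members tested in both comparisons, with red for members whose difference of effects was called and a dotted line for equal effects. Nkx2-9 lies on the dotted line, and Lhx9, Nkx2-2 and Irx4 lie high above it near 0 on the x axis.

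Knockdown of Wdr5 raised 17 members and lowered 2 of the 28 tested, with 31.5% of 15143 genes higher and 31.5% lower. The median log2 fold change was 1.08 for the tested members and -0.01 for all genes, and 11 of the 28 (Dlx1, Irx4, Lhx1, Lhx3, Lhx4, Lhx5, Lhx9, Nkx2-2, Nkx2-3, Nkx6-1 and Pax7) passed the filter through the shWdr5 libraries, which pushes the first median up. The control libraries are those of the shRybp comparison (whose total in this table is 0.509 and 0.506 of that in the shRybp table, with no gene of 50 or more counts higher), so the values of the knockdowns are not independent. Nkx2-9 was at 16.1 and 16.5 CPM in shEV and at 101 and 105 CPM in shWdr5 (log2 fold change 2.65, SE 0.07, adjusted p = 3.1e-19, edgeR). Nkx2-2 went from 0.327 and 0.506 to 4.95 and 5.42 CPM (3.63, SE 0.30, adjusted p = 3.8e-10). In the same comparison Nkx2-3 (1.65) and Nkx6-1 (1.07) rose, and Nkx2-5, the cardiac member, fell (-1.27).

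Of the 7 Lhx members tested in shWdr5 cells, the 5 that rose (Lhx1, Lhx3, Lhx4, Lhx5 and Lhx9) all passed the filter through the shWdr5 libraries, which favours that direction. Lhx2 (0.28) and Lhx6 (-0.19) were not called. Lhx1 went from 0.0934 and 0.152 to 1.96 and 2.49 CPM (log2 fold change 4.13, SE 0.50, adjusted p = 1.9e-07, edgeR), and Lhx4, a pituitary and motor neuron factor, from 0.0467 and 0.303 to 1.35 and 1.29 CPM (2.92, SE 0.56, adjusted p = 9.2e-05). The value of Lhx4 was 2.11 without shEV replicate 1 and 4.66 without shEV replicate 2. Lhx9 (2.33), Lhx5 (2.22) and Lhx3 (1.29) rose as well. Irx3 went from 3.46 and 4.35 to 23.1 and 24.1 CPM (2.6, SE 0.13, adjusted p = 2.5e-14). Its neighbour Irx5 rose by 1.88 and Irx4 by 1.08. D230002A01Rik, which shares 5.3% of the exon bases of Irx3, went from 0 and 0.0506 to 1.12 and 1.77 CPM. Dlx3 went from 0.607 and 0.506 to 4.53 and 4.27 CPM (2.96, SE 0.29, adjusted p = 7e-09), and Dlx1 (1.56), Pax7 (1.61) and Six5 (0.44) rose too.

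Pax8 fell most, from 4.53 and 4.00 CPM in shEV to 0.327 and 0.192 CPM in shWdr5 (log2 fold change -4.01, SE 0.35, adjusted p = 1.1e-09, edgeR). Six4 was at 42.2 and 46.8 CPM in shEV and at 40.7 and 41.9 CPM in shWdr5 and was not called (-0.11, SE 0.07, adjusted p = 0.18). Nkx6-2 rose slightly, from 16.4 and 16.7 to 19.2 and 22.6 CPM (0.34, SE 0.10, adjusted p = 0.0050), and was not called without shWdr5 replicate 2 (0.22). Side by side with shRybp, the value of Irx3 was 1.3 in shRybp and 2.6 in shWdr5, that of Pax8 -1.44 and -4.01, and that of Pax1 2.69 and -0.12, the last not called in shWdr5. These differences were not tested, because the comparisons share their controls. Primitive endoderm markers summed to 17.1 and 20.5 CPM in shEV and 36.7 and 36.4 CPM in shWdr5 (4 of 7 higher, 1 lower, none at 0), and neural markers to 638 and 629 and then 336 and 341 CPM (3 of 7 higher, 3 lower, none at 0). Embryonic stem cell markers summed to 6130 and 6330 and then 5080 and 5130 CPM (2 of 8 higher, 5 lower), and trophectoderm markers to 53.4 and 58.2 and then 60.2 and 64.3 CPM (3 of 6 tested higher, 1 lower, none at 0). The part of these cell types was not tested.

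In the rTRS libraries labelled DOX 3 members were higher and 5 lower of 18 tested (23.0% of 16291 genes higher, 20.4% lower), with a median log2 fold change of -0.06 against 0. Irx1, Irx4 and Six2 passed the filter through the DOX libraries, which favours a rise. Another 2 members passed it through the NTC libraries, which favours a fall. Six2, a factor of kidney progenitors, was at 0.0196 and 0.0372 CPM in NTC and at 0.963 and 0.510 CPM in DOX (4.58, SE 0.87, adjusted p = 9e-04, edgeR), a rise from 1 and 2 counts whose size is imprecise. Dlx3 went from 4.97 and 3.33 to 10.6 and 11.9 CPM (1.44, SE 0.19, adjusted p = 4.4e-05), and Irx3 from 0.919 and 0.521 to 1.79 and 1.59 CPM (1.23, SE 0.40, adjusted p = 0.025). The members that fell were Dlx2, from 0.274 and 0.354 to 0.0770 and 0 CPM (-2.94, SE 1.05, adjusted p = 0.038), Pax8, from 1.21 and 1.00 to 0.289 and 0.294 CPM (-1.92, SE 0.51, adjusted p = 0.0083), Nkx2-9, from 4.21 and 2.96 to 2.00 and 1.55 CPM (-1.01, SE 0.27, adjusted p = 0.0084), Nkx6-2, from 8.39 and 7.87 to 3.33 and 4.87 CPM (-0.99, SE 0.19, adjusted p = 0.0010), and Lhx6, at -0.81. Six4, at 30.2 and 31.4 CPM in NTC and 31.4 and 37.4 CPM in DOX, overlapped between the groups.

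Several of these rTRS calls depended on a library. The count of called members was 5 without NTC replicate 1 and 5 without NTC replicate 2. Dlx2 was not called without NTC replicate 1 (-3.11), NTC replicate 2 (-2.75) or DOX replicate 2 (-1.99) nor by DESeq2, and its DOX replicate 2 held 0 counts, so that no size can be given without DOX replicate 1. Without NTC replicate 1, Pax8 (-1.78) and Nkx2-9 (-0.74) were not called, and Irx3 was not called without NTC replicate 2 (0.88) or DOX replicate 1 (1.14). Trophectoderm markers summed to 151 and 135 CPM in NTC and 961 and 884 CPM in DOX (6 of 6 tested higher, none at 0), and embryonic stem cell markers to 5400 and 5240 and then 3060 and 2930 CPM (7 of 8 lower). Primitive streak and mesoderm markers summed to 14.7 and 12.5 and then 63.9 and 58 CPM (3 of 6 higher, none at 0), primitive endoderm markers to 9.49 and 7.85 and then 21.7 and 20.8 CPM (1 of 6 tested higher, 1 lower, none at 0), and neural markers to 659 and 628 and then 382 and 357 CPM (2 of 5 tested higher, 3 lower, none at 0). Dlx3 is itself a gene of the placenta. The part of these shifts in the values of the members was not tested.

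With DOX in Tet.RYBP cells few genes were called, with 3.63% of 14937 genes higher and 2.39% lower. Of the 10 members tested, 1 was lower and 0 were higher by edgeR, and DESeq2 gave the same counts. At an unadjusted p under 0.05 (edgeR) there were 3 of the 10 members, all with a negative log2 fold change (Nkx6-2, Lhx2 and Pax8). The same threshold was passed by 2806 of the 14937 genes. Nkx6-2 went from 10.4 and 11.1 CPM with vehicle to 6.52 and 5.28 CPM with DOX, without overlap (log2 fold change -0.87, SE 0.18, adjusted p = 0.0014, edgeR). Over all genes tested, 24.2% had both DOX libraries below both vehicle libraries. The count of called members was 2, both lower, without DOX replicate 2. Six4 was at 38.9 and 36.9 and then 45.2 and 40.0 CPM (0.17, SE 0.09, adjusted p = 0.34), and Six5 at 5.31 and 5.42 and then 4.80 and 5.74 CPM. The median over the tested members was -0.60, against 0 over all genes, with Pax8 (-0.62, adjusted p = 0.18) and Dlx3 (-0.80, adjusted p = 0.35) near it. No marker of embryonic stem cells was called in this comparison by edgeR, although 4 of the 8 had an unadjusted p under 0.05, with a summed level of 5280 and 5240 and then 5090 and 5150 CPM. Neural markers summed to 411 and 394 and then 359 and 364 CPM (2 of 5 tested lower, none at 0), and primitive streak and mesoderm markers to 11 and 15 and then 16.7 and 15.7 CPM (1 of 2 tested higher, none at 0). Primitive endoderm markers summed to 7.97 and 8.11 and then 4.57 and 5.54 CPM. None of the 5 tested was called, 2 had an unadjusted p under 0.05 (edgeR), and none was at 0. The part of these cell types was not tested.

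In TF-AA cells 5 members were higher and 1 was lower of 12 tested, with 14.4% of 14456 genes higher and 16.1% lower and a median of 0.78 against 0.01. Nkx6-2 went from 11.5 and 9.78 CPM in WT ESC to 17.5 and 18.4 CPM in TF-AA (log2 fold change 0.76, SE 0.14, adjusted p = 0.00014, edgeR). The other rises were at low levels. Dlx2, Irx4, Lhx2 and Pax2 passed the filter through the TF-AA libraries, which favours a rise and pushes the members' median up. Dlx4 went from 0.955 and 1.09 to 2.18 and 2.77 CPM (1.27, SE 0.35, adjusted p = 0.0068), Dlx2 from 0.143 and 0.197 to 0.894 and 0.640 CPM (2.14, SE 0.65, adjusted p = 0.014), Lhx6, of cortical interneurons, from 2.82 and 2.37 to 5.46 and 3.57 CPM (0.80, SE 0.26, adjusted p = 0.020), and Pax2, of kidney and midbrain, from 0 and 0.148 to 0.496 and 0.800 CPM (3.04, SE 0.86, adjusted p = 0.0090). Six4 fell from 55.5 and 54.8 to 39.0 and 37.6 CPM (-0.52, SE 0.09, adjusted p = 1e-04). Nkx2-9, at 3.96 and 2.17 CPM in WT ESC and 3.18 and 3.04 in TF-AA, overlapped between the groups. Pax7 and Pax9 had no counts in WT ESC and 14 and 9 counts in TF-AA, at least 4.94-fold and 3.18-fold higher than a group at 0 allows.

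The low TF-AA calls did not hold in every fit with 3 libraries. Dlx2 was not called without WT ESC replicate 1 (1.92) or 2 (2.37) nor without TF-AA replicate 1 (1.88) or 2 (2.35), while its log2 fold change stayed near that of all 4 libraries. Pax2 was not called without WT ESC replicate 1 (2.07), and no size can be given for it without WT ESC replicate 2, since WT ESC replicate 1 held 0 counts. Lhx6 was not called without WT ESC replicate 2 (0.68) or TF-AA replicate 1 (0.46), and Dlx4 was not called without TF-AA replicate 2 (1.09). DESeq2 called 3 members, Nkx6-2, Dlx4 and Six4, and not Dlx2, Pax2 and Lhx6. Feeder fibroblast markers summed to 11.6 and 11.0 CPM in WT ESC and 24.0 and 24.6 CPM in TF-AA (3 of 3 tested higher, with Col3a1, Lum and Dcn at 0). Primitive endoderm markers summed to 11.8 and 11.6 and then 20.8 and 21.1 CPM (2 of 5 tested higher, none at 0). Trophectoderm markers summed to 48.7 and 46.2 and then 61.7 and 60.6 CPM (2 of 3 tested higher, none at 0). The part of these cell types was not tested.

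RYBP phase disruption against WT.RYBP raised 4 members and lowered 2 of 20 tested, with 16.1% of 14575 genes higher and 17.0% lower and a median of 0.15 against 0. Dlx1, Irx4, Lhx2 and Six2 passed the filter through the phase disruption libraries, which favours a rise. Another 2 members passed it through the WT.RYBP libraries, which favours a fall. Rybp was at 749 and 753 CPM in WT.RYBP and 661 and 625 CPM in phase disruption cells, against 110 in the Rybp+/+ libraries of the separately normalized deletion table. Dlx1, of forebrain interneurons, went from 0.377 and 0.187 to 1.09 and 1.48 CPM (log2 fold change 2.15, SE 0.58, adjusted p = 0.0038, edgeR), and Dlx3 from 1.26 and 1.12 to 2.98 and 3.42 CPM (1.42, SE 0.34, adjusted p = 0.0012). Irx4 went from 0.189 and 0.623 to 1.09 and 1.41 CPM (1.60, SE 0.55, adjusted p = 0.024), and Six5 from 1.82 and 1.87 to 3.46 and 3.83 CPM (0.98, SE 0.30, adjusted p = 0.010). Lhx1 fell from 1.07 and 0.686 to 0.136 and 0.201 CPM (-2.32, SE 0.70, adjusted p = 0.0095) and Nkx6-2 from 5.15 and 4.55 to 2.44 and 3.09 CPM (-0.81, SE 0.25, adjusted p = 0.012). Six4 (30.9 and 36.3, then 32.3 and 34.3 CPM) and Irx3 (7.04 and 8.91, then 8.21 and 7.66 CPM) overlapped between the groups.

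This table was the shallowest, and the calls were the least stable. The count of called members was 3 without WT.RYBP replicate 1, 3 without phase disruption replicate 1 and 3 without phase disruption replicate 2, and DESeq2 called 2, Dlx1 and Dlx3. Dlx3 kept its call in each of these fits. Dlx1 was not called without WT.RYBP replicate 2 (1.74) or phase disruption replicate 2 (1.91), and Lhx1 was not called without phase disruption replicate 1 (-2.08) or 2 (-2.62). Irx4 was not called without WT.RYBP replicate 1 (0.99), phase disruption replicate 1 (1.77) or 2 (1.40), and was at 2.67 without WT.RYBP replicate 2. Six5 was not called without WT.RYBP replicate 1 (0.95) or phase disruption replicate 2 (0.90), and Nkx6-2 without WT.RYBP replicate 1 (-0.72) or phase disruption replicate 1 (-0.65). Feeder fibroblast markers were high in both groups, at 512 and 497 CPM in WT.RYBP and 385 and 416 CPM in phase disruption cells (4 of 8 lower, none at 0). Trophectoderm markers summed to 272 and 280 and then 320 and 338 CPM (4 of 6 tested higher, none at 0), primitive streak and mesoderm markers to 32.8 and 33.9 and then 20.1 and 20.9 CPM (1 of 4 tested lower, none at 0), and neural markers to 359 and 357 and then 293 and 291 CPM (2 of 5 tested lower, none at 0). The part of these cell types was not tested.

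Across the 7 comparisons 33 of the 39 members were tested at least once, and 28 were called at least once. Of 18331 genes tested at least once, 81.6% were called at least once, so the share of members is close to that of all genes. Nkx6-2 was called in all 7, higher after Rybp deletion, in shWdr5 and in TF-AA, and lower in shRybp, rTRS DOX, Tet.RYBP DOX and phase disruption. A share of 12.9% of its exon bases overlaps Inpp5a on the opposite strand, and the strand setting of the counting is not given in the sources used here. Inpp5a itself had log2 fold changes of 0.13, -0.23, -0.39, 0.28, -0.16, -0.39 and 0.12, in the order deletion, shRybp, shWdr5, rTRS, Tet.RYBP, TF-AA and phase disruption, opposite in sign to Nkx6-2 in shWdr5, rTRS, TF-AA and phase disruption. Dlx3 was called higher in 5 comparisons and was not called in Tet.RYBP and TF-AA. Six4 was called in 3 and lower in each of them. Pax8 was called in 3, also lower in each. Of the never called members, Dlx5, Irx2, Lhx2, Pax3 and Pax5 passed the filter in at least 1 comparison. Lhx2, tested in all 7, had log2 fold changes from -2.51 to 1.38, none past the threshold.

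Other genes of the same pathways were read from lists. Of 14 further family genes, 2 of 8 tested were higher and 4 lower after deletion, 2 higher and 2 lower of 10 in shRybp, and 1 higher and 5 lower of 9 in shWdr5. In rTRS DOX 1 was higher and 4 lower of 8, in TF-AA 2 and 3 of 6, and in phase disruption 4 and 1 of 9, while in Tet.RYBP DOX 0 of 8 were called by edgeR (1 at an unadjusted p under 0.05). Nkx2-4 fell after deletion (log2 fold change -3.47, SE 0.55), the largest change of this list there. Pax6, of eye and forebrain, given for each of these after its values were seen, fell after deletion (-1.31, SE 0.28), in shRybp (-0.95, SE 0.19), in shWdr5 (-1.16, SE 0.21), in rTRS DOX (-2.06, SE 0.67) and in TF-AA (-3.16, SE 0.60), and rose in phase disruption (0.59, SE 0.21). Lmx1a, a LIM-homeodomain factor of dopaminergic precursors, rose after deletion (log2 fold change 2.83, SE 0.49), in shRybp (2.20, SE 0.21), in TF-AA (2.52, SE 0.54) and in phase disruption (3.03, SE 0.31). Nkx6-3, a relative of Nkx6-2, fell in shRybp (-1.05, SE 0.15), shWdr5 (-1.96, SE 0.19) and rTRS DOX (-3.12, SE 0.41). Nkx1-2 went in both directions, with a fall in shWdr5 (-2.24, SE 0.47) and rises in rTRS DOX (1.99, SE 0.29) and TF-AA (4.47, SE 0.64). Of 18 cofactors of these families, 6 of 16 tested were higher and 4 lower after deletion, 5 and 4 of 15 in shRybp, 7 and 3 of 13 in shWdr5, 4 and 3 of 16 in rTRS DOX, 0 and 1 of 12 in Tet.RYBP DOX (3 at an unadjusted p under 0.05, edgeR), 1 and 4 of 13 in TF-AA, and 3 and 2 of 16 in phase disruption. Eya2, a cofactor of Six4 and its relatives, rose after deletion (2.96, SE 0.64), in shRybp (2.17, SE 0.56), in shWdr5 (1.77, SE 0.48), in rTRS DOX (1.56, SE 0.51) and in phase disruption (1.68, SE 0.51). Lmo1, which competes for the LIM cofactor LDB1, rose after deletion (1.63, SE 0.26), in shRybp (2.1, SE 0.26), in shWdr5 (2.91, SE 0.25), in TF-AA (3.93, SE 0.86) and in phase disruption (1.62, SE 0.50). Other cofactors fell, among them Eya1 (-0.88, SE 0.12) and Tle4 (-0.76, SE 0.08) in TF-AA and Tle4 (-0.43, SE 0.05) in phase disruption.

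The 29 Polycomb genes of a further list, Rybp among them, were detected and tested in each table. After deletion 10 were higher and 11 lower, in shRybp 10 and 16, in shWdr5 12 and 9, in rTRS DOX 8 and 7, in Tet.RYBP DOX 3 and 3, in TF-AA 5 and 6, and in phase disruption 10 and 9. Beside Rybp, the largest changes were those of Phc2 after deletion (0.88, SE 0.06), Epop, a PRC2 cofactor, in shRybp (-1.17, SE 0.09) and shWdr5 (-2.04, SE 0.08), Jarid2 in rTRS DOX (-1.03, SE 0.06), and Cbx8 in TF-AA (1.75, SE 0.41). Bmi1 rose in shWdr5 (1.81, SE 0.12) and fell in phase disruption (-0.72, SE 0.11). In Tet.RYBP DOX cells Ezh1 rose by 0.43 (SE 0.09) and Epop fell by 0.37 (SE 0.05).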

How the data were processed

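Per the labels and the study's methods, the authors trimmed reads with Trim Galore, aligned them with STAR to mm9 and deposited raw counts per gene from HTSeq, without normalization. For ChIP-seq they called peaks with MACS2 against input, and the deposited lists give each peak with a q-value on the -log10 scale and a fold enrichment, which is a ratio to the local background. The peak lists give no read depth.

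The 7 count tables were each analysed alone. Genes were kept by filterByExpr with the group, scaled by TMM and tested with edgeR 4.0.16 (quasi-likelihood, two-sided) in R 4.3.3, with Benjamini-Hochberg adjustment over all genes tested and a call at an adjusted p under 0.05. CPM values use TMM-scaled library sizes. Deletion and knockdown were compared by an interaction term. The fits were tested on simulated data. With 14512857 to 81049618 counts and 2 libraries a group, members under 1 CPM rest on few counts. A group at 0 was set to a floor of 3 counts over the group, which covers counting error only. A peak was assigned to a gene when it overlapped 2.5 kb either side of an annotated start site by at least 1 bp (GENCODE vM1 on mm9). Promoter bases were read from the mm9 genome.

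Fully described members are, in each comparison, the up to 6 called members with the largest absolute log2 fold change and the up to 3 with the highest control CPM. Others are given by count or by log2 fold change. Gene lists were fixed in writing with their tests. Members and lists were chosen with earlier results of these data known. The columns headed NTC in the Tet.RYBP table were taken as vehicle, and a column headed S5-DOX_R2 as rTRS DOX replicate 2. Sox1, of the neural list, was not matched. Alternatives were DESeq2 1.42.0, RLE factors, other count filters, a fold threshold, the replicate block, leaving out each library, and other peak windows and thresholds.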

Additional observations from a re-analysis of the deposited data

Results flagged for a closer look

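The effect of Rybp deletion in R7.15 ESCs and that of Rybp knockdown in R1 ESCs differed for 9 of 34 members tested by a test of the difference itself (edgeR, deletion minus knockdown on the log2 scale). Of all 18203 genes tested, 22.2% had a higher and 18.2% a lower effect of deletion, so members did not differ more often than genes at large. The difference was -2.06 for Dlx2, -1.61 for Dlx3, -2.42 for Irx4, -3.59 for Lhx9, -0.32 for Six4, -3.36 for Nkx2-2, 1.15 for Nkx6-2 and 2.09 for Pax8. For Pax3 the fitted difference was -6.33, against shEV libraries at 0 counts, so it depends on the prior count of the fit. Nkx6-2 was called in opposite directions in the 2 comparisons. Dlx2 was too, but its call after deletion was lost by DESeq2 (adjusted p = 0.054), with no low-count filter (adjusted p = 0.064, edgeR) and without either of 2 libraries. Groups of 2 libraries were too small to be searched for libraries that stand apart.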

How the results depend on the processing

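Depth and 2 libraries a group limit all counts of members. Leaving out 1 library in turn, the number of called members was 6 to 8 after deletion, 15 to 19 in shRybp, 13 to 17 in shWdr5, 5 to 7 in rTRS DOX, 1 to 2 in Tet.RYBP DOX, 4 to 5 in TF-AA, 3 to 5 in phase disruption and 7 to 10 for the difference of deletion and knockdown. With an absolute log2 fold change above 1 as well, it was 3 after deletion, 0 in Tet.RYBP DOX and 3 in TF-AA, by construction of the stricter rule. DESeq2 called 3 members in TF-AA and 2 in phase disruption, against 6 and 6 by edgeR, and the cause was not tested. RLE factors and the other count filters kept every count of called members within 1.5 times the reported one.

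Replicate numbers are shared between groups but nothing in the labels ties them to a culture or day, and the correlation of same-numbered deviations was 0 to 0.15. With the replicate block the counts of called members were 7, 20, 19, 9, 1, 6 and 6 in the order of the report, and 8 for the difference, and the block changed no call among 57 values of fully described members.

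Values near 0 changed sign with the library left out, none of them called. Six5 ranged from -0.46 (without Rybp-/- replicate 2) to 0.08 (without Rybp-/- replicate 1) after deletion and from -0.16 to 0.10 (without DOX replicate 1) in Tet.RYBP DOX. Nkx2-9 in TF-AA ranged from -0.36 (without WT ESC replicate 2) to 0.51, with -0.02 without TF-AA replicate 1. In phase disruption Six4 ranged from -0.13 to 0.10 (without WT.RYBP replicate 2), with 0.03 without phase disruption replicate 1, and Irx3 from -0.17 to 0.17 (without WT.RYBP replicate 2), with 0.04 without phase disruption replicate 2. A fully described call was lost in 32 fits without a library and in 13 other fits, and no called value changed sign.

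RING1B and H3K4me3 counts stayed within 1.5 times the reported ones under the other windows and thresholds. With peaks of -log10 q of at least 5, H3K27ac was at 2 members in Rybp+/+ and 5 in Rybp-/- ESCs, WDR5 at 14 in Rybp-/- ESCs, and STAT3 at 2 in Rybp+/+, 4 in Rybp-/- and 4 in DOX- cells. Requiring the peak to cover the start site gave H3K27ac at 3 and 4, WDR5 at 17 in Rybp+/+ ESCs, and STAT3 at 2, 2 and 5. Within 1 kb, H3K27ac was at 3 members and STAT3 at 4 in Rybp+/+ ESCs, and within 5 kb STAT3 was at 11. Stricter peak rules admit fewer peaks by construction, and the share of protein-coding genes under these other rules was not counted.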
